A study of Caenorhabditis elegans with 2 samples.

Results

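Chromatin immunoprecipitation and sequencing (ChIP-seq) of the zinc finger protein ZTF-25 gave a ranked list whose strongest peaks were partly missing from the thresholded lists. Of the 1500 strongest ranked peaks, 284 appeared in neither thresholded list made from both libraries. These 284 peaks were taken from a ranked list of 104189 peaks by their pooled signal, which is the authors' own peak value from both libraries together. A peak was counted as absent when it overlapped no peak of the conservative or the combined list by even 1 bp. The other 1216 strong peaks overlapped at least 1 of these lists. The peaks were thus selected on the pooled signal and, through the lists, on the irreproducible discovery rate (IDR). This measure is low where 2 peak calls consistently rank a peak high. Both are therefore given as descriptions.

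The worms were young adults at 63 hours, whole animals of strain RW12287, in which CRISPR had placed a TY1, EGFP and 3xFLAG tag in the worm's own ztf-25 gene on V (allele st12287). They had been synchronised by starvation as first-stage larvae after bleaching, and the tagged protein was pulled down with an antibody against GFP. The 2 libraries are biological replicates of 1 group, so there was no comparison between conditions and no p-value. No untagged worms were analysed here, and without read counts in the files the library depth is unknown. The ranked list also gives each peak's signal in 2 library columns, and wherever a pair of library values is printed, column 15 comes first and column 19 second. Intervals given for shares are exact 95% Clopper-Pearson intervals and cover the counting of peaks only.

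Peak calling in ChIP-seq marks places where fragments pile up over the rest of the genome. Tandem repeats, in which a short unit follows itself head to tail, are known as minisatellites or satellites when the unit is longer than a few bases. The genome of Caenorhabditis elegans has many such tracts along its chromosome arms and also long clusters of identical genes, among them the 5S ribosomal RNA genes. Reads from identical copies cannot be placed at a single one of them. How the authors treated such reads is not given in the sources used here.

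The strongest absent peaks lay on repeats, and the sequences of some strong absent peaks are printed here to show their repeat units. Each was read from the plus strand of the RefSeq WBcel235 genome, the assembly that the ce11 coordinates refer to, with 1 repeat unit in capitals. The first is the strongest peak of the whole ranked list and holds a 26-base unit.
chrX:15810950-15811137: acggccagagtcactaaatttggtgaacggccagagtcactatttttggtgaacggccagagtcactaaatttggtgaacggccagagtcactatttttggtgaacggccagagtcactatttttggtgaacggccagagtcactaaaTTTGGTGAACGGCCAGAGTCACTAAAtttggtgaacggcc
The second strongest ranked peak also has a 26-base unit, related to the first on the opposite strand.
chrX:11785685-11785960: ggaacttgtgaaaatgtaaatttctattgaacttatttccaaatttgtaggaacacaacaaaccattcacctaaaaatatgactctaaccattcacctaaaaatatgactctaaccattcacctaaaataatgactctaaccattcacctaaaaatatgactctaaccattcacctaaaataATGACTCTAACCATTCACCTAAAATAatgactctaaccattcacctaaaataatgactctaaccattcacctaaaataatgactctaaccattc
The strongest peak of the largest cluster of absent peaks carries a version of the first unit on another chromosome.
chrV:5284027-5284302: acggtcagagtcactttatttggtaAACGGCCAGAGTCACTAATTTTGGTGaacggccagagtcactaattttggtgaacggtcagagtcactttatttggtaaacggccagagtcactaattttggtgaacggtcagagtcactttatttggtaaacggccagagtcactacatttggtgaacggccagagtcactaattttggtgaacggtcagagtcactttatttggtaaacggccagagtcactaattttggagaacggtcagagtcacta
The next has the 27-base unit that was shared most widely among the absent peaks.
chrX:5056793-5057068: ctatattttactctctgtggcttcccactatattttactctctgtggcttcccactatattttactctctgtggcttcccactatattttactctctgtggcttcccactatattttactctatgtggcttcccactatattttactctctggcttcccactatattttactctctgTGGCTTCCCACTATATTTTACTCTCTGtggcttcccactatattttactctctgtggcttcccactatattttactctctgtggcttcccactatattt
A 45-base unit and a 9-base unit follow, and copies of the 9-base unit in other peaks were not counted.
chrIV:10945717-10945992: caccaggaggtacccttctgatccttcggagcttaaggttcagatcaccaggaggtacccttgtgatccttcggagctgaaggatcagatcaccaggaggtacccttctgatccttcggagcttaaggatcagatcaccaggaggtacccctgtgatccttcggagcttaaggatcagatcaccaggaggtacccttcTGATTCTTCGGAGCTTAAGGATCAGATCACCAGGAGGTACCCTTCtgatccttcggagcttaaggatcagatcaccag
chrV:12509981-12510256: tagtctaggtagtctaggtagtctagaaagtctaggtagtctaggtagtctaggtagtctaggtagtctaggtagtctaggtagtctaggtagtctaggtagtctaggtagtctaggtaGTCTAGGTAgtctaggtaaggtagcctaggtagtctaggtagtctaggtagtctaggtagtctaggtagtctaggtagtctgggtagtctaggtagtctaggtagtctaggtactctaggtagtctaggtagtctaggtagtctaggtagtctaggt

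One further peak is printed because it covers a 5S ribosomal RNA gene. The 119 bases in capitals are those of an rrn-4.2 copy, and the lower-case bases are the spacer on either side.
chrV:17129352-17129627: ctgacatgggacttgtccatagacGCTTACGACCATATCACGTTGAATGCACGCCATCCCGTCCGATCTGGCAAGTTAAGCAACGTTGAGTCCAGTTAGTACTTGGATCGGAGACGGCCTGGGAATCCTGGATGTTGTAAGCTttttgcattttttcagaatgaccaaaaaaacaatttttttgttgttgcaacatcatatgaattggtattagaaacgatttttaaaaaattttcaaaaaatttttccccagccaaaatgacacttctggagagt

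The absent peaks fell into a pair of groups by their IDR. The IDR in the ranked list was 0.01 or lower at 56 of the 284 peaks, while 1.11% of all ranked peaks reached that limit. The remaining 228 lay above 0.01. At the wider limit of 0.05 the count was 245 of 284, or 86.3%, beside 2.91% of all ranked peaks. Each thresholded list holds only peaks at an IDR of 0.01 or lower in its own ranked list. In the ranked list used here the 56 passed that limit and the 228 did not. In the second ranked list of the series, 54 of the 56 and 14 of the 228 passed it. The thresholded lists derive in part from a file that the deposited texts do not describe. Whether it was used to leave out regions is not stated and was not tested. These shares follow from how the peaks were chosen. Over the whole ranked list, 5 more peaks at 0.01 or lower stood in neither list, with a pooled signal too low for the strongest 1500, and all 5 lay in multi-copy tandem repeats. The 56 and the 228 are described separately because their repeat content and their place in the genome differed.

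By rank, absent peaks were frequent at both ends of the strong peaks. They made up 10 of the 12 strongest ranked peaks and 22 of the first 100. Between ranks 101 and 900 each bin of 100 peaks held between 2 and 9 of them. The number then went up with each bin, from 19 at ranks 901 to 1000 to 53 at ranks 1401 to 1500. All 32 absent peaks down to rank 300 had an IDR of 0.01 or lower, and all 53 in the last bin were above it. The median pooled signal was 135.2 for the 56 and 75.7 for the 228, beside 91.5 for the strong peaks in a list. At the edge of the strong peaks, rank 1500 had a pooled signal of 72.696 and rank 1501 had 72.673, and the lowest absent peak stood at 72.705.

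**Figure D1:**
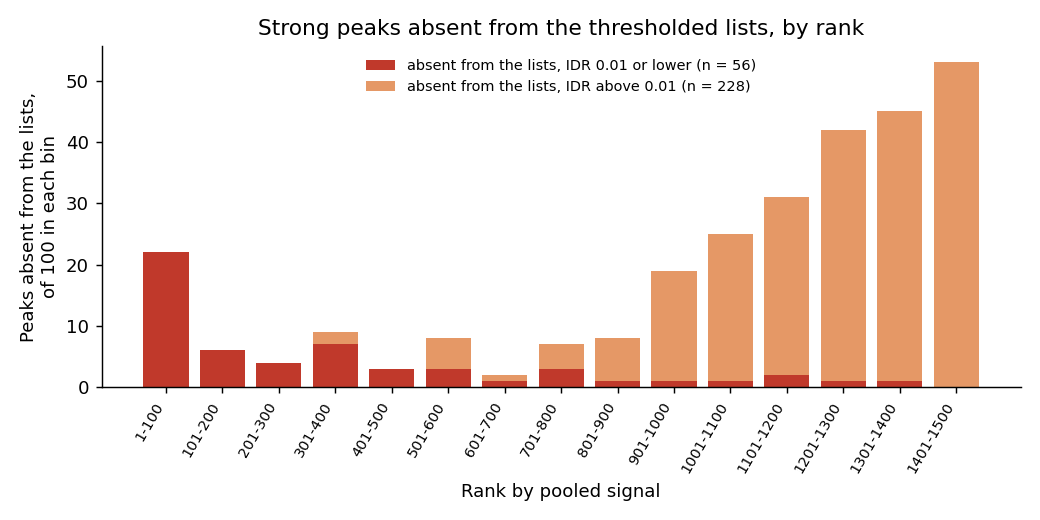
Bars give the number of peaks absent from the thresholded lists among each 100 ranked peaks, for the 1500 strongest, split by the global IDR. The first 100 ranks hold 22 such peaks, all at an IDR of 0.01 or lower, and the last 100 hold 53, all above it.

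**Figure D2:**
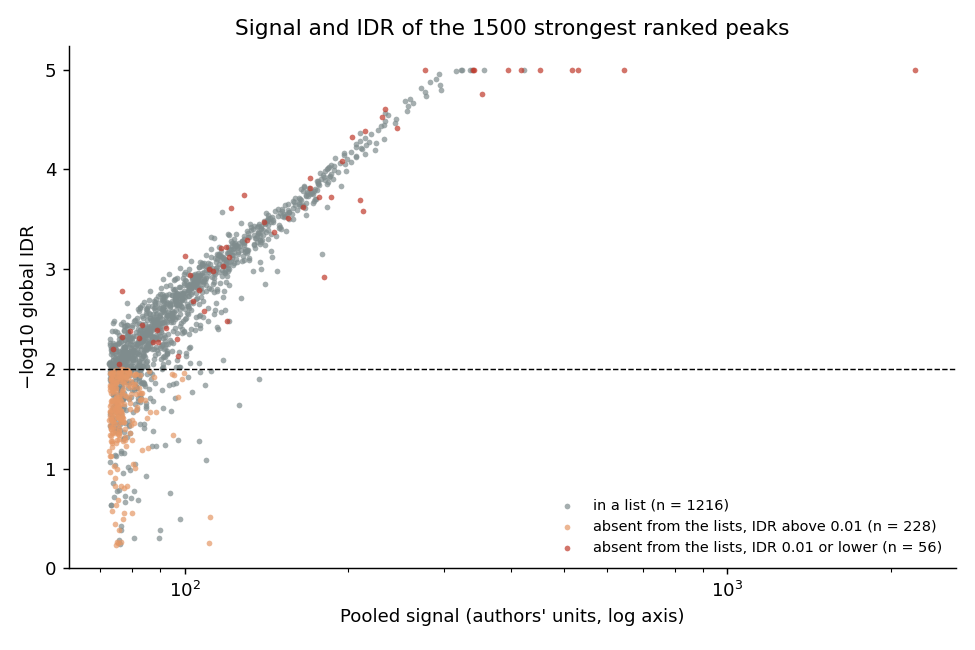
Each point is 1 of the 1500 strongest ranked peaks, with the pooled signal on a log axis and the −log10 of the global IDR, which ends at 5. The 56 absent peaks above the dashed line at an IDR of 0.01 run along the same band as the peaks in a list, and the 228 below it sit near the low end of the signal.

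The 56 absent peaks that passed the IDR limit lay almost entirely in repeats. A peak was called tandem when at least 70% of its bases equalled the base 1 period further on, for a period of up to 120 bases, and 46 of the 56 were, or 82.1% (69.6 to 91.1). Of the 228, 11 were tandem, or 4.82%. Among the strong peaks in a list 33 of 1216 were, or 2.71%, and among all ranked peaks 0.981%. A peak was called multi-copy when at least 50% of its 31-base words occurred 2 or more times in the nuclear genome, on either strand. Occurrences within the same peak or tract were counted, so a tandem peak can be multi-copy without a copy elsewhere. The tandem and multi-copy measures are therefore not independent. This held for 54 of the 56, or 96.4% (87.7 to 99.6), for 32 of the 228, or 14.04%, for 11.0% of the strong peaks in a list and for 4.68% of all ranked peaks. At least 50% of bases were masked as repeats in the RefSeq genome for 48 of the 56, or 85.7%, and for 45 of the 228, or 19.7%, beside 13.6% and 17.2%. By at least 1 of the 3 measures, 55 of the 56 were repeats. The tandem share differed between the ranked lists of the single replicates. In replicate 1's own ranked list, 76 of the 1500 strongest peaks were absent from the lists at an IDR of 0.01 or lower, and 53 of these were tandem, or 69.7%. In that of replicate 2 alone it was 23 of 48, or 47.9%. No repeat measure was applied here in selecting the 284 peaks. The selection used the deposited lists, and whether a repeat criterion entered those is not stated. Whether these repeat shares follow from how the lists were made was not tested.

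Most tandem peaks were not strong, but a larger share of them than of all ranked peaks was. The ranked list held 1022 tandem peaks, with a median pooled signal of 29.5, beside 26.3 for all peaks. Of these, 90 were among the 1500 strongest, or 8.81%, beside 1.44% of all ranked peaks. Of the 90, 57 were absent from the lists. The 33 strong tandem peaks in a list had a median pooled signal of 90.2, and the 57 absent ones 116.6. In the 56, the median 31-base word of a peak occurred 10 times in the genome, with peaks ranging from 1 to 250. Occurrences within the same tract are included.

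The repeat periods of absent and list peaks differed. Of the 46 tandem peaks that passed the IDR limit, 25 had a period of 24 to 28 bases, with 26 bases at 14 peaks and 27 bases at 7. Of the 11 tandem peaks among the 228, 9 had such a period. Only 2 of the 33 strong tandem peaks in a list did, and there a 40-base period was the most frequent, at 12 peaks. Periods of 24 to 28 bases made up 11.9% of the 1022 tandem peaks of the ranked list. Their 122 peaks had a median signal of 35.8, and 28 of them reached an IDR of 0.01. No absent peak was a simple repeat with a period of 6 bases or fewer. The tracts ran well past the peaks. Followed outward for as long as windows of 100 bases stayed at least 60% equal 1 period on, they were 311 to 8204 bp long with a median of 2239.5 bp, and 31 of 46 were longer than 1000 bp.

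**Figure D3:**
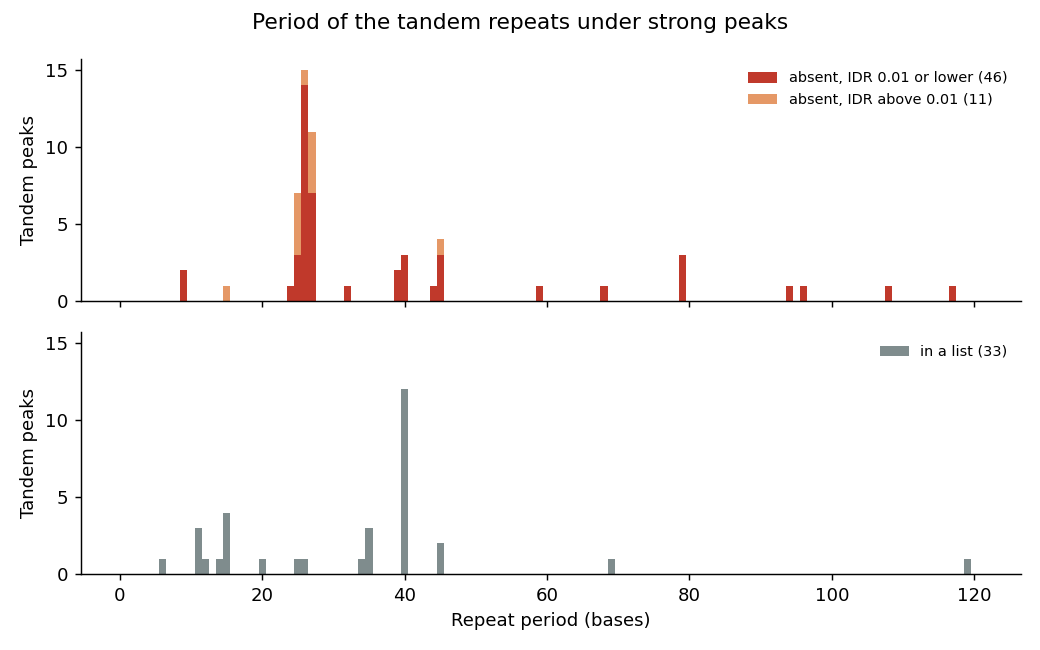
Histograms of the repeat period, in bases, of the tandem peaks among the 1500 strongest: above, the 57 absent from the lists, and below, the 33 in a list. The absent peaks gather at 25 to 27 bases and the list peaks at 40.

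**Figure D4:**
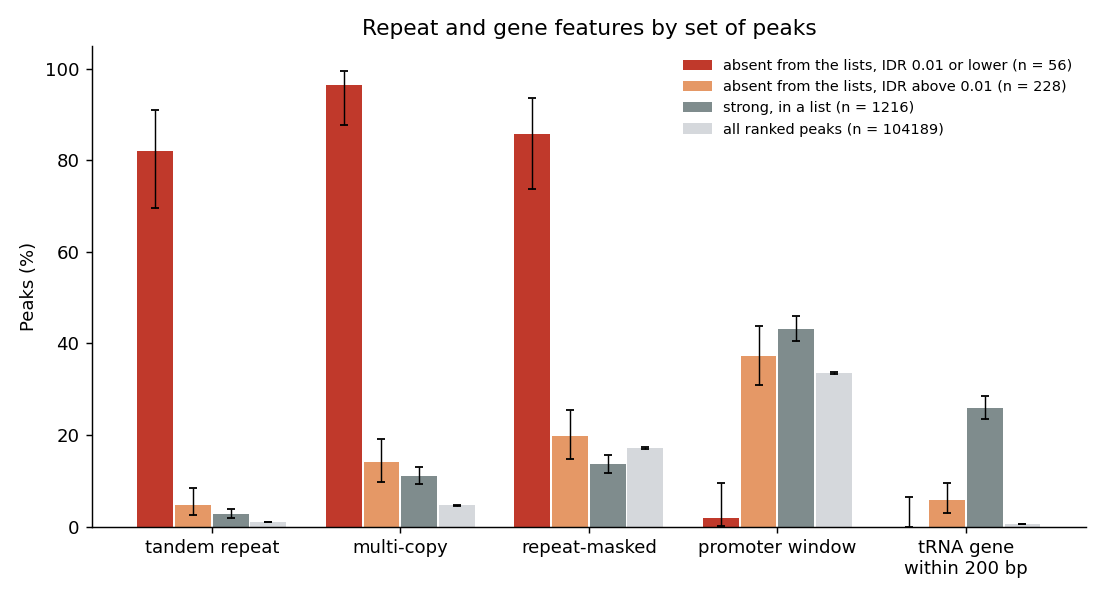
Bars give the percent of peaks with each feature in 4 sets of peaks, and lines the exact 95% intervals. The 56 absent peaks at an IDR of 0.01 or lower stand near the top for all 3 repeat measures and near 0 for promoter windows and tRNA genes.

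The strongest peak of all, chrX:15810950-15811137, was narrower than the other absent peaks at 188 bp. Its pooled signal was 2217.8, and the library columns held 1216.1 and 1196.1, so the libraries stood at nearly the same level. The next peak, chrX:11785685-11785960, had a pooled signal of 643.95 and library values of 425.5 and 247.3. Another peak, chrX:15808054-15808329, lay in the same 3828-bp tract as the strongest and had 348.1 and 244.5 in the library columns. The 5′ end nearest to these tract peaks among protein-coding genes was that of Y7A5A.7, at 6938 bp from the strongest summit. That nearest to the second peak was Y102F5A.1, at 1493 bp. The files give no function for these genes.

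For the other peaks among the 12 strongest absent ones, distances are likewise from the summit to the nearest protein-coding 5′ end. The peak chrV:5284027-5284302 (pooled signal 516.4, library values 369.6 and 205.6) lay 3208 bp from the 5′ end of Y49G5A.1, and the peak chrV:5284613-5284888 of the same tract had 237.3 and 128.9. The peak chrX:5056793-5057068 had 287.7 and 138.9 and lay 2047 bp from C24H10.4. Next came chrIV:3366892-3367167, with 292.8 and 137.1, at 2167 bp from vha-19, which is named as a subunit of the vacuolar proton pump. The peak chrIV:10945717-10945992 had 220.1 and 176.3 and lay 2953 bp from Y69E1A.1. In all of these the first library column was the higher. The peak chrII:14337713-14337988 had 267.8 and 88.9, a ratio of 2.99, and its nearest 5′ end was that of ddl-3, at 6593 bp. A further pair on IV, at chrIV:14779915-14780190 (229.3 and 142.3) and chrIV:12318959-12319234 (168.8 and 81.3), were nearest to Y57G11C.8 at 1784 bp and oac-58 at 7400 bp. Of the 12, chrX:293299-293574 alone was not tandem; it had 191.9 and 167.3, lay 3797 bp from R57.2, and 87.4% of its words were repeated.

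The same units recurred at distant places. Linking absent peaks that shared at least 20 of their 31-base words gave 15 families with 58 of the 284 peaks, 37 of them among the 56. Of 93 linked pairs, 50 joined different chromosomes. The widest family was that of the 27-base unit, with 13 peaks on all 6 nuclear chromosomes and pooled signals from 77.9 to 451.9. An exact copy of the unit in capitals in the chrX:5056793 peak was found in 10 of the 13. Copies within 5 edits of it lay in 11 of the 56 and 8 of the 228, in 1 of the 1216 strong peaks in a list, and in 65 of all ranked peaks.

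The 26-base unit of the strongest peak was carried by a family of 8 on 3 chromosomes, with pooled signals from 76.2 to 2217.8. Copies within 5 edits lay in 8 of the 56, 1 of the 228, none of the 1216 and 30 of all ranked peaks. The 5 peaks of the tract on V each held a copy that was 96.2% identical. Copies of the second strongest peak's unit within 5 edits lay in 11 of the 56, 1 of the 228, none of the 1216 and 33 of all ranked peaks. Among the absent peaks these took in all 8 of the 56 and the 1 of the 228 that held the first unit. Those peaks matched the second unit only at 4 or 5 edits, so the counts for these units largely cover the same peaks. The strongest peak itself held such a copy on the opposite strand at 80.8% identity. The unit of the second strongest peak, found with no edit in chrIII:5355230-5355505 and chrIII:5357806-5358081, was 73.1% identical to the unit shown for the strongest over its length, while either was less like the 27-base unit, at 57.7% and 65.4%. The 45-base unit occurred, within 9 edits, in 3 of the 56, 2 of the 228, 1 of the 1216 and 25 of all ranked peaks. These shares describe sequence only. Whether reads from one copy were counted at another was not tested, and copies on different chromosomes are not separate observations where their words are the same.

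Along the chromosomes, absent peaks that passed the limit were bunched. A cluster was 3 or more peaks of a set chained by gaps of at most 5000 bp. The 56 held 5 clusters with 17 peaks, or 30.4%, the 228 taken alone held none, and the 1216 strong peaks in a list held 28 clusters with 92 peaks, or 7.57%. All 284 together formed 9 clusters with 30 peaks, or 10.6%. The largest was the tract on V, where 5 peaks lay within 2084 bp, all in the same 26-base repeat, with pooled signals from 97.2 to 516.4. The second, on IV, held 4 peaks within 2978 bp, from chrIV:14779322 to chrIV:14782299, whose last peak lay in Y57G11C.8 and whose other peaks lay in no gene. The cluster of 3 from chrIV:10943505 to chrIV:10950603 began in the 45-base repeat and ended in nsph-3.1. That on II, from chrII:8287614 to chrII:8292671, held a 79-base repeat and was nearest to cct-4, a chaperonin subunit gene. The 3 peaks from chrV:17309224 to chrV:17310943 were multi-copy and not tandem. A cluster of 3 on I, from chrI:4541910 to chrI:4547375, was tandem throughout and nearest to Y119C1B.3. In 6 of the 9 clusters every peak was tandem, and peaks of 1 tract are not separate observations.

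The shares by chromosome were spread unevenly for the 56, with 18 peaks on V, 12 on IV, 10 on X and 5 or 6 on each of the others. That is 32.1% on V (20.3 to 46.0), beside 16.9% of strong list peaks and 21.4% of all ranked peaks. The interval includes the share of all ranked peaks. Of the 18, 5 lay in 1 tract, 3 in the cluster from chrV:7921292 and 2 in that from chrV:17309224, so they are not separate observations. Of the 228, 50 were on III, or 21.9%, beside 15.6% of the strong peaks in a list and 14.7% of all ranked peaks. With each chromosome cut into 3 equal lengths, the 2 outer ones held 64.3% of the 56 and 66.7% of the 228, near the 65.7% of strong list peaks and the 66.9% of all ranked peaks. The median distance from the 56 to the nearest list peak was 38550 bp, the closest lay at 1489 bp, and none was within 1000 bp. For the 228, 16 had a list peak within 1000 bp.

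Ribosomal RNA genes held 2 absent peaks, both among the 56 and both in the cluster of 5S genes on V. The 5S rRNA is a part of the large ribosomal subunit, and its genes alternate there with the sls-1 genes for the spliced leader RNA that is joined to the front of many worm messenger RNAs. The annotation lists 14 rRNA genes and 12 sls-1 genes in that cluster. The peak chrV:17122051-17122326 had a pooled signal of 155.2 and library values of 99.3 and 54.0, with its summit 127 bp from an rrn-4.2 copy. The peak chrV:17129352-17129627, printed above, had 106.5 pooled and 73.1 and 38.2 in the library columns, with its summit inside another rrn-4.2 copy. Both were also within 1000 bp of sls-1.10. Their median words occurred 11 times in the genome. In all, 9 ranked peaks lay within 200 bp of an rRNA gene, none of them in the strong list peaks, and the other 7 had signals too low for the strongest 1500. No ranked peak lay within 1000 bp of the 4 rRNA genes annotated at the right end of I. The last ranked peak on I ended at 15054333, before the first of these genes at 15062083.

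The few absent peaks of low IDR outside tandem repeats numbered 10, and 9 of them were multi-copy. The exception was chrIII:13780140-13780415, in an exon of pot-3, a gene named for protection of telomeres, 3523 bp from the end of the chromosome. Only 13.0% of its words were repeated. Its pooled signal was 102.3, and the library columns held 46.3 and 69.6, so here the second library was the higher. A neighbour among the 228, chrIII:13778217-13778492 in mdt-29, a Mediator subunit gene, lay 5446 bp from the end and had 59.4 and 25.02. These genes, and those of the next sentences, were chosen after their values were seen. Exons held 4 of the 56 summits. Besides pot-3 these lay in ttn-1, the worm titin, at chrV:6174002-6174277 and chrV:6179225-6179500, with pooled signals of 79.4 and 87.4, and in H03A11.2 at chrX:15228134-15228409, with 112.8. The latter 3 were tandem inside the gene, with periods of 24, 117 and 108 bases.

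By place in the genome, the 228 absent peaks above the limit were nearer to all ranked peaks than the 56 were. Their tandem and multi-copy shares, 4.82% and 14.04%, were still above the 0.981% and 4.68% of all ranked peaks. Their summits lay in exons at 37.3%, beside 19.6% of strong list peaks and 36.9% of all ranked peaks. They fell in promoter windows, from 1000 bp upstream to 500 bp downstream of a protein-coding 5′ end, at 37.3% (31.0 to 43.9), beside 43.3% and 33.6%. For the 56 the promoter share was 1.79%, and 91.1% of their summits were intergenic. Median GC content was 44.0% in the 228, 42.0% in the 56, 43.1% in strong list peaks and 38.4% in all ranked peaks.

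Transfer RNA genes, at which many of the listed peaks lie, were rarer among the absent ones. A tRNA gene lay within 200 bp of 13 of the 228 summits, or 5.70% (3.07 to 9.55), and of none of the 56. The share was 25.99% in strong list peaks and 0.536% in all ranked peaks. Transfer RNAs carry amino acids to the ribosome. The strongest of the 13 was chrII:5577156-5577431, 22 bp from the tRNA gene WBGene00023151, with a pooled signal of 99.96 and library values of 72.0 and 27.9. At the tRNA gene Y95D11A.4 the pooled signal was 88.0, with 32.9 and 47.1. The peak chrX:8969615-8969890 covered WBGene00022962, with 55.8 and 28.7. The peak over WBGene00006338 had nearly even values, 35.5 and 39.6, and an IDR of 0.0103. The IDRs of the 10 strongest ran from 0.0103 to 0.0459. Which library was the higher differed among these genes.

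Small nucleolar RNA genes, whose products guide chemical changes of rRNA, lay at 4 of the 228: C05D2.15 (63.7 and 24.9), C06A1.9 (47.0 and 27.7), Y67A10A.14 (45.9 and 24.9) and another gene with 32.0 and 34.8. The small nuclear RNA genes of splicing lay at 3, namely C47F8.9 (57.1 and 26.04), T08G5.11 (35.9 and 34.7) and F32B5.9 (36.0 and 28.6). MicroRNA genes lay at 2: cel-mir-54, 178 bp from a summit with 33.1 and 45.2, and cel-mir-800, 53 bp from one with 36.9 and 30.5. As shares of the 228 these were 1.75% (0.480 to 4.43), 1.32% (0.272 to 3.80) and 0.877% (0.106 to 3.13). The same shares were 4.77%, 1.23% and 0.411% in strong list peaks and 0.278%, 0.102% and 0.139% in all ranked peaks, so the intervals for the last 2 classes include the list value. Of the clustered gene families that were looked up, histone, major sperm protein, vitellogenin and hsp-16 genes had no absent peak within 1000 bp. F-box genes had 2 (fbxa-83 and fbxa-189), C-type lectin genes 2 (clec-80 and clec-112), chemoreceptor genes 2 (srh-214 with srh-215, and srxa-8), bath-42 1 and col-147 1. As shares of the 284, F-box, C-type lectin and chemoreceptor genes each stood at 0.704%, beside 0.411%, 0.576% and 3.45% of strong list peaks. The families of bath-42 (MATH-BATH) and col-147 (collagen) each stood at 0.352%, beside 0.329% and 1.23%. Shares over all ranked peaks are not given for these families, and counts this small are not read as a difference. Histone genes had 9 strong list peaks and vitellogenin genes 2.

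In balance between the libraries, the absent peaks leaned to the first column, as did the strong list peaks. The columns carry no replicate name. Column 15 equalled the signal in replicate 1's own ranked list at all 275 absent peaks with an entry there, to within 0.001%, and column 19 equalled that of replicate 2 at all 268. The median of log2((column 15 + 1)/(column 19 + 1)) was 0.62 in the 56 and 0.38 in the 228, beside 0.36 in strong list peaks and 0.11 in all ranked peaks. The medians of the columns were 89.5 and 54.9 in the 56, and 39.9 and 29.8 in the 228. In strong list peaks they were 53.4 and 41.1. Column 15 was the higher in 49 of the 56, or 87.5% (75.9 to 94.8), in 72.4% of the 228, and in 78.0% of strong list peaks.

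Most absent peaks kept the libraries within 2-fold of each other, namely 43 of the 56 and 181 of the 228. Column 15 was over 2-fold higher at 12 of the 56 and 42 of the 228, and column 19 at 1 and 5. In strong list peaks column 15 was over 2-fold higher at 11.4% and column 19 at 0.164%, so both shares were lower there. Over all ranked peaks the shares were 13.7% and 12.3%, with 74.0% within 2-fold. All 284 absent peaks together had 19.01% and 2.11%. The lists are built on how the libraries repeat. Whether these shares follow from the choice of peaks was not tested.

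The most uneven absent peaks were these. The peak in an exon of F15B9.10 had 54.3 in column 15 and 5.43 in column 19. The tandem peak chrII:14338795-14339070, nearest to ddl-3, had 95.1 and 17.0, a ratio of 5.35, and a peak short of the tandem limit, nearest to dnc-6, had 72.9 and 13.2. The peak in K06A5.2 had 57.4 and 12.8, and the tandem peak nearest to clec-80 had 149.9 and 34.7 while its IDR was still below 0.01. In the other direction, chrIII:8863036-8863311 had 15.5 and 95.8, and it was nearest to plg-1, a gene of the copulatory plug. The peaks at larp-5 (12.7 and 36.4), rpl-11.2, a ribosomal protein gene (19.5 and 53.9), R05G9.1 (22.1 and 60.4) and Y56A3A.7 (23.7 and 51.9) also had column 19 higher. Of these 10 peaks, clec-80's alone was among the 56.

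**Figure D5:**
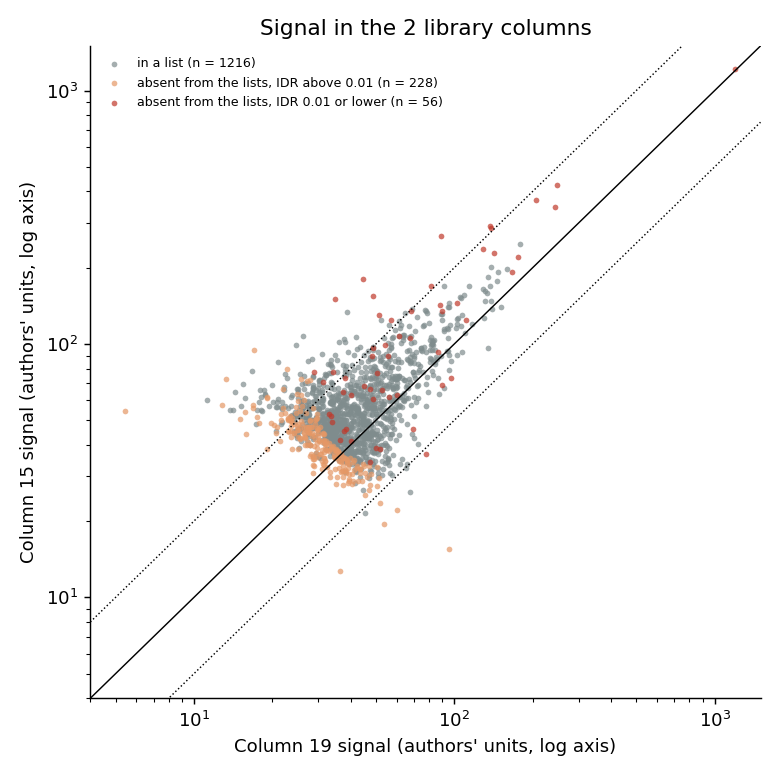
Each point is 1 of the 1500 strongest ranked peaks, with column 19 across and column 15 up, both on log axes. The solid line marks equal signal and the dotted lines a 2-fold difference. The strongest absent peak, at 1216 and 1196, lies on the solid line, and most others lie above it.

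Each replicate's own lists gave a partly separate view, from the same libraries. Among the 1500 strongest peaks of replicate 1's ranked list 519 were absent from the lists, and among those of replicate 2's 649. None of the 56 and 5 of the 228 overlapped a replicate's own thresholded list. The ranked list of replicate 1 held all 56, with 41 at an IDR of 0.01 or lower and 50 within its 1500 strongest. That of replicate 2 held 53, with 28 and 47. In the second ranked list of the series, 54 of the 56 were at 0.01 or lower, and 25 were so in all 4 ranked lists. None of those 41 or 28 stood in the thresholded list of either replicate. Of the 228, 14 reached 0.01 in the second ranked list of the series. These 14 had a median log2 ratio of 1.29, none lay in a promoter window, and 12 were repeats by at least 1 measure. The other 214 had a median ratio of 0.37, with 39.7% in promoter windows and 20.6% repeats. The 5 that overlapped a replicate list, whose genes were partly chosen after their values were seen, were the peaks in madf-11 with C05D2.15, at the tRNA gene WBGene00022962, in Y56A3A.7, in F15B9.10 and in C05D2.14, of which 3 were in replicate 1's list and 2 in replicate 2's.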

How the data were processed

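Whole young adult worms carrying EGFP-tagged ZTF-25 were assayed by ChIP-seq in 2 biological replicates of 1 group. The authors deposited 8 peak lists on ce11. Per the file headers and the deposited README texts, each derives from alignments and a further file, and the thresholded lists from 1 more file that they do not describe. The aligner, peak caller and duplicate removal were not given in the sources used here. Column 7 and the library columns are the authors' signal values, of unstated scale. The deposited ranked lists give the IDR as −log10, and the deposited thresholded lists a score from the IDR. That score was used only to check the lists against the ranked peaks.

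The 1500 peaks of highest signal were kept where they overlapped neither list. Genes came from Ensembl release 115, and sequence and repeat masking from RefSeq WBcel235. Repeats were measured with Python 3.11.15, NumPy 2.4.6, pandas 2.3.3, numba 0.67.0 and SciPy 1.17.1, and checked on simulated data. No count of reads was available, so precision is that of counting peaks. No test was run. Named genes are those holding or nearest to the 12 strongest absent peaks, at the 6 largest clusters, at the 5 highest and 5 lowest library ratios, noncoding genes within 200 bp (up to 10 per class) and clustered gene families (up to 3 per family). The report marks the few genes named outside this rule. The peaks, the lists and the gene rule were chosen with earlier results of these data known. Alternatives varied the number of strong peaks, the lists and overlap required, the repeat, gene and cluster limits, and the libraries.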

Additional observations from a re-analysis of the deposited data

How the results depend on the processing

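The set depends strongly on where the ranking is ended and on which library ranks the peaks. Taking the 1000 strongest peaks gave 88 absent ones, of which 68.2% were multi-copy and 22.7% in clusters, and the 2000 strongest gave 661, with 14.98% and 6.35%. Absence from the conservative list alone gave 499, with 20.4% and 6.61%. Ranking by column 15 alone gave 497 peaks with a median log2 ratio of 1.30, and by column 19 alone 624 with a median of -0.75, which reversed the sign; each such ranking picks peaks high in its own column. With each replicate's own ranked list in place of the pooled one, leaving out either replicate, the absent peaks numbered 519 to 649, those at an IDR of 0.05 or lower 122 to 176, those at rRNA genes 3 to 3 and those overlapping a replicate list 12 to 12. The multi-copy share was then 14.6% to 21.6%, the masked share 18.2% to 25.4%, the tandem share 8.47% to 14.5% and the share in clusters 4.16% to 6.17%. The ratio of the columns cannot be had there. Of absent peaks at an IDR of 0.01 or lower, an alternative added after seeing the data, 47.9% to 69.7% were then tandem, beside 82.1%. The masked share was 49.6% at a limit of 25% and 23.6% at 75%, the multi-copy share 23.2% at 75% of words, the clustered share 5.99% with gaps of 1000 bp, and 1 peak lay at an rRNA gene with no distance allowed. An IDR limit of 0.01 gave 56. The other 25 alternative values, among them absence from the combined list alone, an overlap of 50% of a peak, other word lengths and other tandem identities, stayed within 1.5 times the count or inside the interval of the share or median. No paired analysis was possible because there is 1 group. The unknown read depth and the unstated handling of multi-copy reads limit what the signal at a single repeat copy can show.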
